A study of Mus musculus with 6 samples.

Results

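Kruppel-like factors are zinc finger transcription factors that bind GC-rich and CACCC sequences in promoters and enhancers, where some members mainly activate and others mainly repress. In liver they take part in the response to hormones, feeding and the day-night rhythm, and in the response of non-parenchymal cells to flow and injury. The 10 genes described here (Klf2, Klf3, Klf4, Klf6, Klf9, Klf10, Klf11, Klf12, Klf13 and Klf15) were chosen by name, through probe sets annotated with 1 gene symbol. They held 33 of the 34945 such probe sets and 10 of the 18193 genes these probe sets cover.

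Liver RNA came from male C57BL/6 mice, an inbred laboratory strain. One group had eaten a high-fat diet (fat supplied 60% of the energy) for 12 weeks from 8 weeks of age, and the other a normal diet over the same time. Each diet had 6 mice, and RNA was pooled by pairs, which would make 3 pools of 2 mice for each diet with 1 Affymetrix Mouse Genome 430 2.0 array each. The array is thus the replicate (n = 3 per diet), and p-values measure differences relative to the variation among these pools. Values are log2 expression levels, differences are those of high-fat minus normal diet with limma's standard error (SE) after ±, and a gene was called at an adjusted p below 0.05.

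All 10 genes passed the level filter and were tested among 14071 genes, as were 26 of their 33 probe sets among 27399. Likeness was closer among the high-fat arrays (Pearson's r across probe sets 0.994 to 0.995) than among the normal diet arrays (0.984 to 0.992), and each other array had its lowest r with normal diet 3. Its score on the first principal component was -46.2, against 24.3 to 25.4 for the high-fat arrays and -15.6 and -12.5 for normal diet 1 and 2. For the Gapdh controls, the 3′ minus 5′ log2 signal, which reflects RNA integrity, was -0.19 to 0.0086 on the high-fat arrays and 0.36, -0.032 and 0.006 on normal diet 1, 2 and 3. Of 7 tested hepatocyte markers, among them the albumin gene, 0 rose and 2 fell (Fgb and Hnf4a), and their mean log2 level was 13.34 to 13.39 under the high-fat diet and 13.57 to 13.59 under the normal diet.

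Of the 10 Kruppel-like factors 1 was called between the diets: Klf6 rose 2.54-fold under the high-fat diet. The other 9 were not called, which does not show them to be unchanged. Among all tested genes 7.6% were called, 5.87% higher and 1.73% lower, so 1 member in 10 was near the background. Higher calls made up 77.2% of all calls, against 66.6% after quantile normalization and 82.9% after median centring of the arrays. The difference was positive for 7 members and negative for 3, and positive for 50.5% of all tested genes. The members' median difference was 0.37, against 0.0033 over all tested genes. Without normal diet 3 the positive differences of Klf10, Klf13 and Klf15 became -0.020, 0.37 and 0.35, while that of Klf2 stayed at 0.30. No overlap between diets was seen for 2 members, Klf6 and Klf15, and for 35.8% of all tested genes (21.1% with the high-fat arrays above and 14.7% with them below). At an unadjusted p below 0.05 there were 4 members (Klf3, Klf6, Klf13 and Klf15) and 27.6% of all tested genes. Each member's 6 values are shown in the plot of levels by diet and array.

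**Figure D1:**
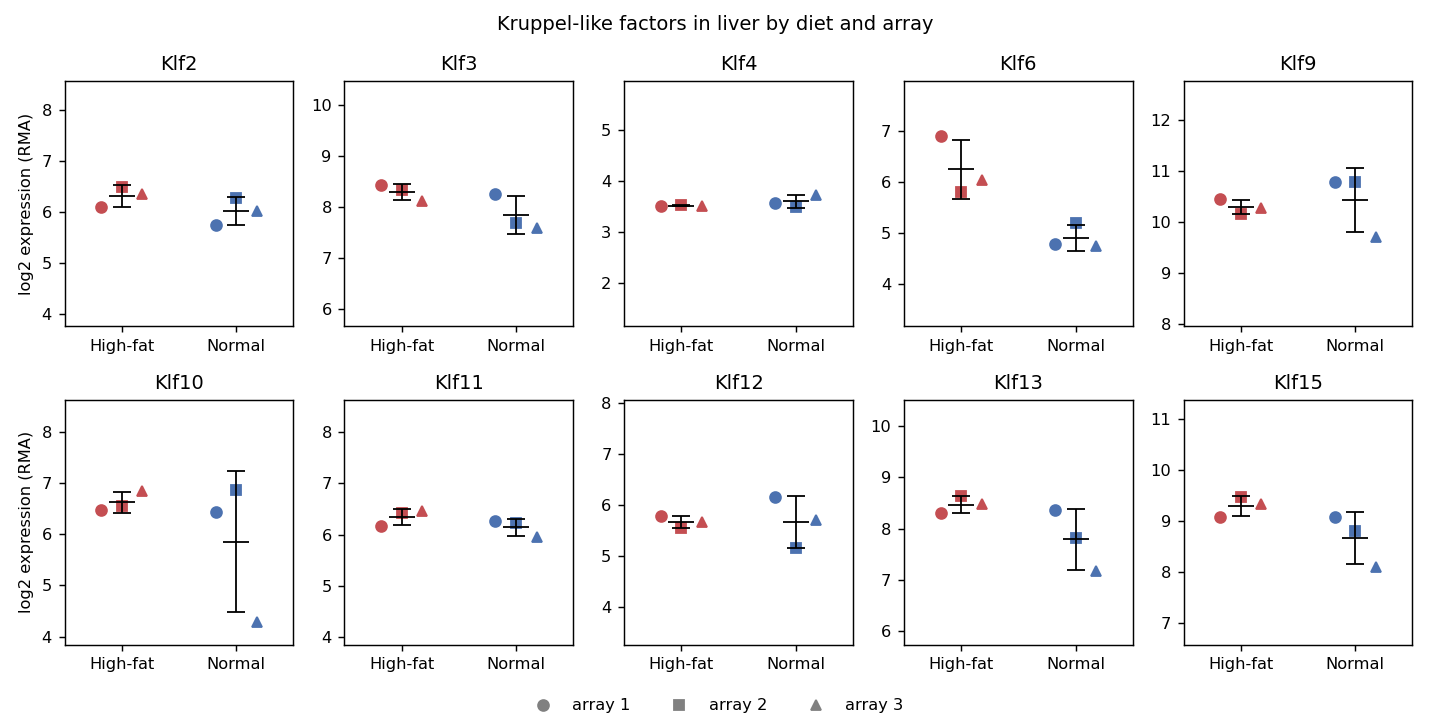
Log2 expression level (y axis, every panel spanning the same range) of the 10 Kruppel-like factors on the 3 high-fat (red) and 3 normal diet (blue) arrays, with the mean and SD in black. Klf6 lies between 5.80 and 6.90 on the high-fat arrays and between 4.73 and 5.19 on the normal diet arrays, and Klf10 lies at 4.28 on normal diet 3, apart from its other arrays.

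Klf6 encodes an early response factor that is widely expressed in liver and is known for its induction in activated hepatic stellate cells after injury. It stood at 6.90, 5.80 and 6.03 on high-fat arrays 1, 2 and 3, against 4.77, 5.19 and 4.73 on normal diet arrays 1, 2 and 3. Every high-fat array thus lay above every normal diet array, and high-fat 1 lay well above the other two. The difference was 1.34 ± 0.28 (limma adjusted p = 0.0335, 95% interval 0.69 to 2.00), with means of 6.24 ± 0.58 under the high-fat diet and 4.90 ± 0.25 under the normal diet (SD, n = 3 arrays each). Klf6 kept its direction but was not called without high-fat 1, 2 or 3 (1.02, 1.57 and 1.45, adjusted p = 0.0533, 0.0540 and 0.0986) or without normal diet 1 (1.28, adjusted p = 0.0668). With the mean of its 5 probe sets the difference was 0.80 and was still called (adjusted p = 0.0452).

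The other 2 Klf6 probe sets that passed the level filter differed in the same direction. Probe set 1433508_at had 4.86, 4.09 and 4.35 on high-fat arrays 1, 2 and 3, against 3.77, 3.28 and 3.10 on normal diet arrays 1, 2 and 3. It was 1.05 ± 0.24 higher (limma over probe sets, adjusted p = 0.0487), a call that ended without normal diet 2 (1.00) or 3 (0.91), with any single high-fat array left out (0.83 to 1.22) and with no level filter (adjusted p = 0.0537). Probe set 1447448_s_at had 5.16, 4.23 and 4.33 on the high-fat arrays, against 3.53, 3.83 and 3.06 on the normal diet arrays, and was not called (1.10 ± 0.28, adjusted p = 0.0714). In both, high-fat 1 was again the highest array. Each exceeded the level floor of its array on only 4 of 6 arrays, and robust multi-array averaging (RMA) compresses differences near background. These were all the high-fat arrays and a single normal diet array. Both probe sets thus passed the filter through the diet under which they were higher, and their direction is no independent support for Klf6. Of the Klf6 probe sets that did not pass, 1418280_at had means of 3.12 (high-fat) and 2.88 (normal diet), with overlap. The other, 1459718_x_at, had means of 2.35 and 2.09, without overlap. In the fit over probe sets 3 of the members' 26 were called, all higher, against 5.33% of all probe sets called, 4.02% higher and 1.31% lower. The Klf6 probe set used for the gene, 1427742_a_at, was among them (limma adjusted p = 0.0394). In this fit its call ended with any single array left out, of either diet, and with array weights. The diets did not overlap in 7 of the 26, against 32.5% of all probe sets.

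The promoter of Klf6 is shown because it is the called member, and those of Klf15 and Klf9 as examples of members that were low on normal diet 3. Klf13 was low there too, and its window, not printed, held 0 copies of CACGTG. Each runs from 250 bases before to 50 bases after the gene start in RefSeq on GRCm38.p6, 5′ to 3′ on the gene's strand, and capitals mark the E-box CACGTG, which clock factors bind, and the CACCC box, bound by Kruppel-like factors (GGGTG on the other strand). The positions are chr13:5861239-5861538 for Klf6, chr6:90462326-90462625 for Klf15 and chr19:23140976-23141275 for Klf9, all on the plus strand.
Klf6: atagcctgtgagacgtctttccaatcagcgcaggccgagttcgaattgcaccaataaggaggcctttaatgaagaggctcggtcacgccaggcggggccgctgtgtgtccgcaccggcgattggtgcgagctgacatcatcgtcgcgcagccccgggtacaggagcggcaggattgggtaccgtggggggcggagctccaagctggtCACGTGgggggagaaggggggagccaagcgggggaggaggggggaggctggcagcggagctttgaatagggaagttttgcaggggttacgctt
Klf15: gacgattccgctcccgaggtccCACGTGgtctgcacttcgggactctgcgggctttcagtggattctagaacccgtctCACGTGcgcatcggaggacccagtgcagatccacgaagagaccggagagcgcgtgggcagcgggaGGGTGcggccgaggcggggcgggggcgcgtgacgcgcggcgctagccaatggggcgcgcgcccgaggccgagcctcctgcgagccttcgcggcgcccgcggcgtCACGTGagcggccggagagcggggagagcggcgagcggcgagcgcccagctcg
Klf9: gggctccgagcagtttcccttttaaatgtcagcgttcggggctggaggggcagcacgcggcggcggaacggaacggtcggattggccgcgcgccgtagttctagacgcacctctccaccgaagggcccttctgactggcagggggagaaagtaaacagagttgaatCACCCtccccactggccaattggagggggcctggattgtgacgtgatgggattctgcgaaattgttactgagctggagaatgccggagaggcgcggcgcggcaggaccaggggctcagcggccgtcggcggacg
Of the 10 members 9 had a promoter in the table and Klf10 had none. CACGTG was found in 4 of those 9 (Klf4, Klf6, Klf11 and Klf15) and in 7.15% of all 32851 promoters of this length. The Klf15 window held 3 copies, and the Klf6 window 1 copy, beginning 43 bases before the start. CACCC or its reverse was found in 6 of 9 (Klf2, Klf3, Klf9, Klf12, Klf13 and Klf15), against 57.5% of all promoters, and the GC box GGGCGG, on either strand, in 7 of 9, against 35.7%. CCAAT, on either strand, was found in 5 of 9, against 37.4%. These are matches of letters, which can share bases between motifs, and not sites shown to be bound.

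Some markers of macrophages, stellate cells and endothelium rose under the high-fat diet. Of 10 macrophage markers 6 rose and 0 fell, among them Cd68, a lysosomal glycoprotein gene (1.28 ± 0.13), Cd5l (0.81 ± 0.11) and the lysozyme gene Lyz2 (0.85 ± 0.12). The mean log2 level of the macrophage list was 8.02 to 8.13 on the high-fat arrays and 7.38 to 7.61 on the normal diet arrays, and its median difference was 0.67, against 0.0033 over all tested genes. Of 10 stellate cell and fibroblast markers 3 rose and 0 fell (Dcn, Col3a1 and Lrat), with a median difference of 0.30 and mean levels of 6.72 to 7.12 on the high-fat and 6.30 to 6.55 on the normal diet arrays. Of 12 endothelial markers 3 rose and 0 fell (Vwf, Lyve1 and Plvap), with a median difference of 0.31 and mean levels of 6.54 to 6.62 on the high-fat and 5.98 to 6.26 on the normal diet arrays. Of 4 tested neutrophil, 4 cholangiocyte and 2 erythroid markers 0 were called by limma, and 1, 1 and 0 had an unadjusted p below 0.05. Their median differences were negative, at -0.26, -0.098 and -0.14, and the genes with the smallest p of the neutrophil and cholangiocyte lists were S100a9 (-0.59 ± 0.25, adjusted p = 0.174) and Epcam (-0.41 ± 0.10, adjusted p = 0.0515). All genes of these 3 marker lists passed the level filter. Of the 21 companion genes named here as called, 10, 7 and 7 still passed when high-fat 1, 2 or 3 was left out, and 16, 19 and 21 when normal diet 1, 2 or 3 was left out, and all kept their direction. High-fat 1, the highest array for Klf6, was the lowest high-fat array for the stellate list and the endothelial list and the highest for the macrophage list. The part of these cells in the Klf6 difference was not tested, and in liver RNA more cells of a type and more RNA per cell cannot be told apart.

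By their profile over the 6 arrays, the genes most like Klf6 were Tubgcp2, which encodes a gamma-tubulin complex component, Bmper, which encodes a BMP-binding protein, and Mcm6, which encodes a subunit of the replicative helicase. Likeness was the root mean square distance of mean-centred log2 levels, which was 0.15, 0.19 and 0.19 for these genes, against a median of 0.78 over all genes. Like Klf6, all 3 were highest on high-fat 1, which follows from picking them by likeness over the same arrays.

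Klf2 and Klf4 encode factors induced by blood flow in endothelium, where they hold back inflammatory genes. Klf2 ranged from 6.09 to 6.49 on the high-fat arrays and from 5.75 to 6.28 on the normal diet arrays, so the diets overlapped, and the difference of 0.30 ± 0.17 was not called (adjusted p = 0.288, 95% interval -0.09 to 0.69). Klf4 lay at the level floor, at 3.52 to 3.53 under the high-fat diet and 3.50 to 3.74 under the normal diet, and was not called (-0.08 ± 0.10, adjusted p = 0.632). Its other probe set did not pass the filter. Of 10 endothelial genes reported downstream of these factors 9 were tested and 0 were called by limma, with a median difference of -0.060 and 3 at an unadjusted p below 0.05. Cdh5, the gene of an endothelial cadherin, differed by 0.61 ± 0.16 (adjusted p = 0.0622) and Vcam1, a leukocyte adhesion molecule gene, by 1.19 ± 0.32 (adjusted p = 0.0638). Nos2, the gene of inducible nitric oxide synthase, differed in the other direction (-0.26 ± 0.10, adjusted p = 0.152), as did Ptgds, a prostaglandin D synthase gene (-0.29 ± 0.14, adjusted p = 0.229).

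Klf9, Klf10, Klf13 and Klf15 shared a feature that did not follow the diet: all 4 were lowest on normal diet 3, and by more than 0.5 below the mean of normal diet 1 and 2. Such a drop was seen in 10.6% of all tested genes. Normal diet 3 was the lowest of the 6 arrays for 7 of 10 members and 18 of their 26 tested probe sets, against 28% of genes and 25.7% of probe sets. The limit of 0.5 was chosen after the values were seen, and the pattern is given as a description without a test.

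Klf9 encodes a factor induced by glucocorticoids and thyroid hormone. It stood at 10.45, 10.16 and 10.28 on high-fat arrays 1, 2 and 3, against 10.80, 10.79 and 9.72 on normal diet arrays 1, 2 and 3. The high-fat arrays thus lay below normal diet 1 and 2 and above normal diet 3. With all arrays the difference was -0.14 ± 0.28 (limma adjusted p = 0.784, 95% interval -0.80 to 0.53). Without normal diet 3 it was -0.49 and was called lower (limma adjusted p = 0.0439), as were 2.22% of all genes, and without normal diet 1 or 2 it was 0.045 and 0.040. All 6 tested probe sets of Klf9 were lowest on normal diet 3, which minus the mean of normal diet 1 and 2 gave -1.17 to -0.52. Their differences with all arrays ran from -0.32 to 0.011, and 0 of 6 were called by limma, nor had any an unadjusted p below 0.05. Without normal diet 3, 2 of them were called lower in the fit over probe sets (1428288_at, -0.47, adjusted p = 0.0421, and 1436763_a_at, -0.60, adjusted p = 0.0230), as were 1.64% of all probe sets.

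Klf10 encodes a repressor induced early by TGF-beta and, in mouse liver, under control of the circadian clock. It had 6.47, 6.56 and 6.85 on high-fat arrays 1, 2 and 3, against 6.43, 6.86 and 4.28 on normal diet arrays 1, 2 and 3. Outside normal diet 3 the arrays of both diets were intermixed, and normal diet 3 minus the lowest of the others was -2.15. The difference of 0.77 ± 0.60 was not called (adjusted p = 0.434, 95% interval -0.63 to 2.17). It became -0.020 without normal diet 3, and 1.06 and 1.27 without normal diet 1 and 2. The gene has a single probe set on the array, so no other probe set bears on it.

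Klf15 encodes a factor that raises gluconeogenic and amino acid catabolic genes in fasting. It stood at 9.09, 9.47 and 9.33 on high-fat arrays 1, 2 and 3, against 9.08, 8.80 and 8.10 on normal diet arrays 1, 2 and 3. The groups did not overlap, though high-fat 1 and normal diet 1 were nearly equal. The difference of 0.63 ± 0.24 was not called (adjusted p = 0.150, 95% interval 0.063 to 1.21) and was 0.35 without normal diet 3 (adjusted p = 0.183). Of 16 genes of gluconeogenesis, amino acid breakdown and the urea cycle reported downstream of Klf15, 15 were tested, of which 1 rose and 0 fell (median difference 0.29). The gene that rose was G6pc, whose enzyme releases free glucose from hepatocytes. G6pc stood at 10.40, 10.86 and 11.24 on the high-fat arrays, against 8.96, 9.19 and 7.30 on the normal diet arrays (2.35 ± 0.48, adjusted p = 0.0312), and was also lowest on normal diet 3. The genes with the next smallest p went both ways and were not called by limma. Aass (-0.59 ± 0.15, adjusted p = 0.0563) and Cps1 (-0.28 ± 0.09, adjusted p = 0.100) were lower, and Gpt2 was higher (0.61 ± 0.20, adjusted p = 0.101).

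Klf13 encodes a factor best known for the induction of the chemokine gene Ccl5 in T lymphocytes. It had 8.30, 8.63 and 8.47 on high-fat arrays 1, 2 and 3, against 8.37, 7.82 and 7.16 on normal diet arrays 1, 2 and 3. Normal diet 1 lay among the high-fat arrays and the other normal diet arrays below them. The difference of 0.68 ± 0.28 was not called (adjusted p = 0.167, 95% interval 0.031 to 1.34), but was 0.98 and called without normal diet 1 (adjusted p = 0.0440, with 5.48% of all genes called higher), and 0.37 without normal diet 3 (adjusted p = 0.236). Probe set 1432543_a_at had 4.94 on normal diet 3 and 6.44 to 7.01 on the other arrays, while 1456030_at, at 4.25 ± 0.17 and 4.09 ± 0.10 under the high-fat and normal diets (SD, n = 3 arrays each), was not low there. Of 6 tested lymphocyte markers 0 were called by limma and 0 had an unadjusted p below 0.05, with a median difference of -0.090 and mean levels of 5.47 to 5.53 under the high-fat diet and 5.51 to 5.65 under the normal diet.

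Mxi1 was among the 3 genes nearest in profile to both Klf13 and Klf15. The gene nearest to Klf13 was Mxi1 itself, which encodes an antagonist of Myc at Max (distance 0.049), followed by Tarsl2 (0.075) and the sirtuin gene Sirt7 (0.091), against a median of 0.52 over all genes. Nearest to Klf15 were Slc25a37, the gene of a mitochondrial iron importer (0.050), Mxi1 (0.055) and Cmtm4 (0.062), against a median of 0.47. Each of these genes was lowest on normal diet 3, which follows from picking them by likeness over the same 6 arrays. None was called (limma adjusted p from 0.126 to 0.167).

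Many clock genes, though not all, were low on the same array. Of 16 tested core clock and clock output genes 10 were lowest on normal diet 3, against 28% of all tested genes. This was not particular to clock genes. Normal diet 3 was also lowest for 9 of 12 endothelial markers and 9 of 15 tested genes reported downstream of Klf15. It was lowest for 1 of 10 macrophage markers and 1 of 10 stellate cell and fibroblast markers. The median difference of the 16 clock genes was 0.36, and 1 rose and 1 fell between the diets. Bhlhe40, which encodes a clock repressor, rose (1.06 ± 0.13) and was lowest on normal diet 1. Nfil3, the repressor of D-box genes, fell (-1.36 ± 0.20) and was highest on normal diet 3. Dbp, a strongly rhythmic output of the clock, stood at 9.54, 9.90 and 9.75 on the high-fat arrays, against 9.33, 8.59 and 4.29 on the normal diet arrays. It was 2.33 ± 1.16 higher without passing (adjusted p = 0.236) and differed by 0.77 without normal diet 3. The mean level of the clock list was 6.73 to 6.79 under the high-fat diet and 5.76 to 6.73 under the normal diet. The labels give no time of day at which livers were taken, and its part in the low Kruppel-like factors of normal diet 3 was not tested.

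**Figure D2:**
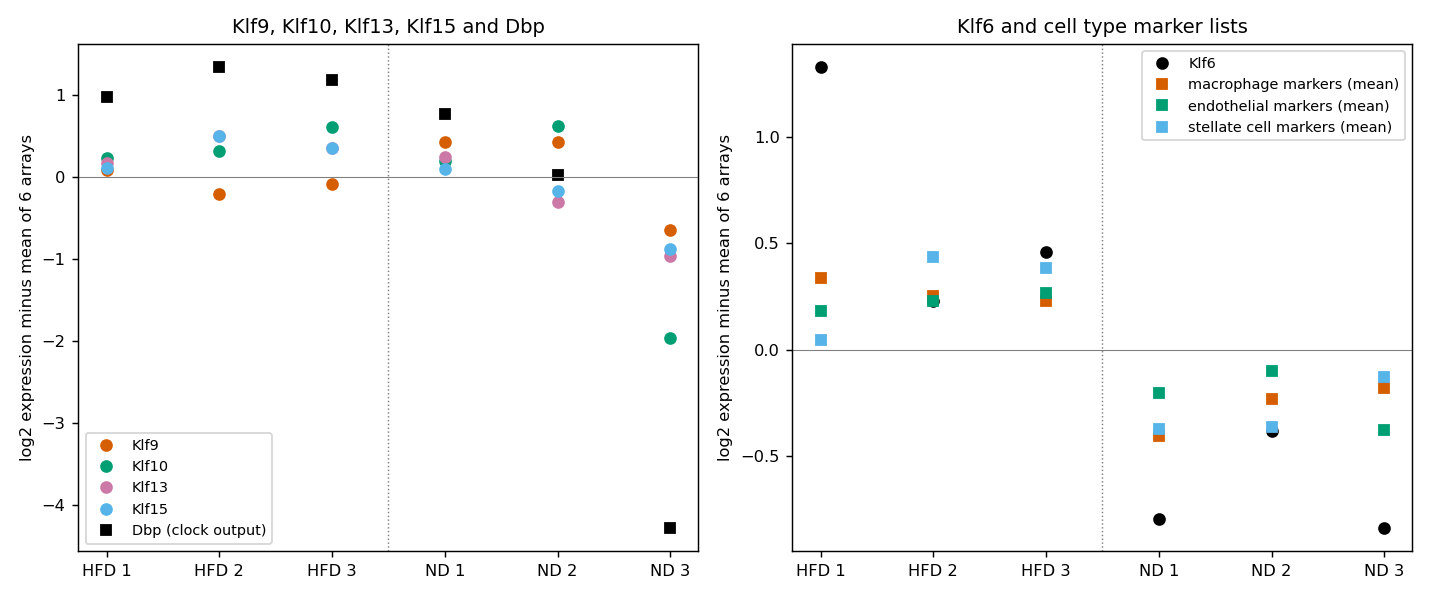
Log2 expression level minus the mean of the 6 arrays (y axis) on each high-fat (HFD) and normal diet (ND) array, for Klf9, Klf10, Klf13, Klf15 and Dbp (left) and for Klf6 and the mean of 3 marker lists (right). On the left normal diet 3 is the lowest array for all 5 genes, and on the right Klf6 and the lists are higher on every high-fat array than on any normal diet array.

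Glucocorticoid-responsive genes, the class to which Klf9 belongs, did not move one way. Of 14 tested 1 rose and 2 fell, with a median difference of -0.17. Sgk1, a kinase gene, differed by 0.74 ± 0.14, and the metallothionein genes Mt1 and Mt2 by -2.53 ± 0.24 and -3.23 ± 0.29 (limma adjusted p = 0.0268, 0.00351 and 0.00326). Metallothionein genes are similar in sequence, and cross-hybridisation between their probes was not tested. Of 14 immediate early genes, which are induced by stimuli that also raise Klf6, Klf4 and Klf10, 13 were tested, 0 rose and 1 fell, with a median difference of 0.039. That gene was Junb, an AP-1 subunit (-1.73 ± 0.17, limma adjusted p = 0.00351), while Jun (0.52 ± 0.15), Atf3 (0.42 ± 0.11) and Myc (-1.17 ± 0.30) did not pass (adjusted p = 0.0845, 0.0559 and 0.0586).

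Klf11 encodes a repressor related to Klf10 that is likewise induced by TGF-beta. It ranged from 6.17 to 6.45 on the high-fat arrays and from 5.95 to 6.26 on the normal diet arrays, and the overlapping groups differed by 0.20 ± 0.13 (adjusted p = 0.351, not called, 95% interval -0.10 to 0.50). Of 15 TGF-beta signalling genes 12 were tested, of which 2 rose and 0 fell (median difference 0.27). They were Smad6, an inhibitory Smad gene (0.87 ± 0.12), and Smad2, a receptor-activated one (0.69 ± 0.14).

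Klf3 and Klf12 encode repressors that recruit the corepressor CtBP. The Klf3 probe set with the highest mean, 1454666_at, had 8.44, 8.33 and 8.12 on high-fat arrays 1, 2 and 3, against 8.27, 7.68 and 7.59 on normal diet arrays 1, 2 and 3. These overlapped, and the difference of 0.45 ± 0.19 was not called (adjusted p = 0.179, 95% interval 0.0034 to 0.90) except without normal diet 1 (0.66, adjusted p = 0.0376). Another, 1421604_a_at, had 6.33, 6.40 and 6.16 on the high-fat arrays, against 5.49, 5.79 and 5.35 on the normal diet arrays, with no overlap. It was 0.75 ± 0.14 higher and was called in the fit over probe sets (limma adjusted p = 0.0277). That call ended with any single high-fat array left out (0.70 to 0.82, adjusted p from 0.0815 to 0.120) and without normal diet 1 (0.73, adjusted p = 0.0559). Of the 6 tested Klf3 probe sets 3 were higher and 3 lower, from -0.20 to 0.75. A pair of the lower ones, 1441200_at and 1458487_at, did not overlap between the diets either (-0.20 ± 0.10 and -0.18 ± 0.10, not called). Which transcripts each probe set reads was not analysed here, and the mean of the probe sets differed by 0.12.

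**Figure D3:**
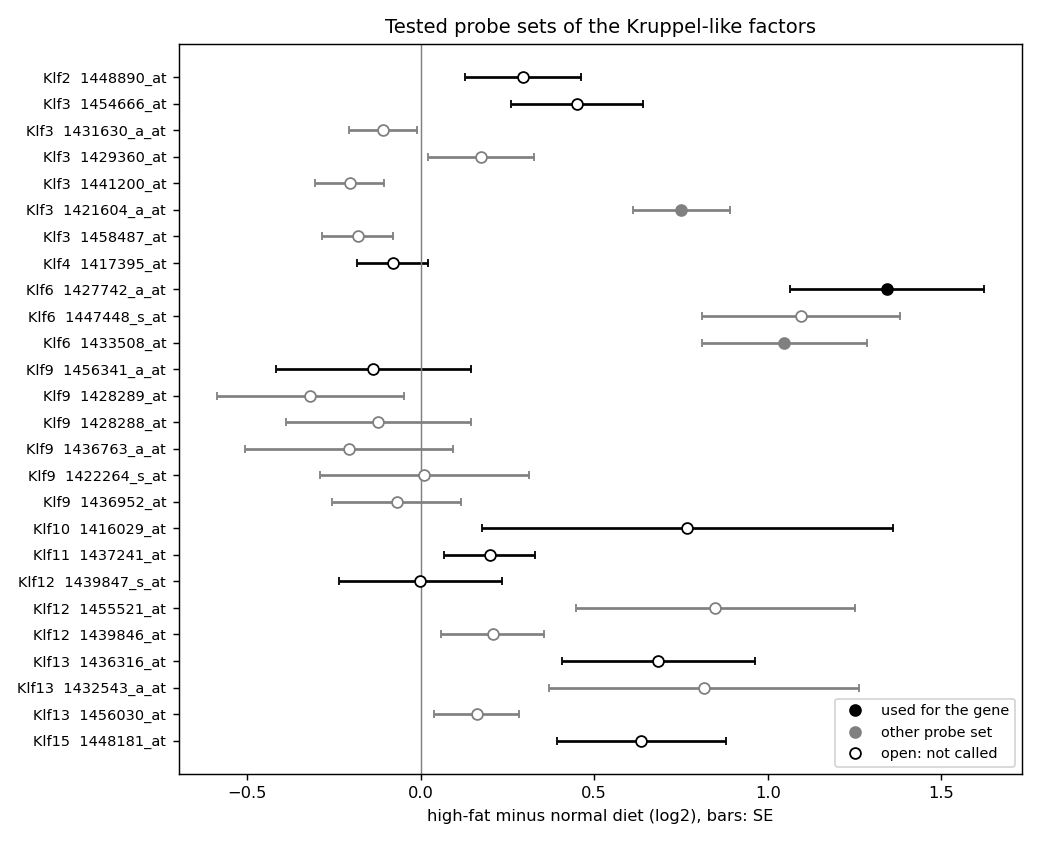
Difference between high-fat and normal diet in log2 (x axis, bars show the SE) for the 26 tested probe sets of the Kruppel-like factors, filled where called in the fit over probe sets. The 3 Klf6 probe sets lie between 1.05 and 1.34, while those of Klf3 lie on both sides of 0, from -0.20 to 0.75.

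Klf12 also gave a different answer by probe set. The one with the highest mean, 1439847_s_at, ranged from 5.55 to 5.80 on the high-fat arrays and from 5.16 to 6.16 on the normal diet arrays, and the diets differed by -0.00067 ± 0.24 (adjusted p = 0.998, 95% interval -0.55 to 0.55). Probe set 1455521_at had 5.68, 5.63 and 5.75 on high-fat arrays 1, 2 and 3, against 5.89, 4.50 and 4.13 on normal diet arrays 1, 2 and 3. Normal diet 1 exceeded the high-fat arrays while the other 2 normal diet arrays lay far below them. Its difference of 0.85 ± 0.40 was not called (adjusted p = 0.239), but was 1.38 and called without normal diet 1 (adjusted p = 0.00811), when 3.96% of all probe sets were called higher. Among 10 genes of cofactors bound by Kruppel-like factors, CtBP, Sin3 and histone deacetylase genes included, 0 were called by limma and 2 had an unadjusted p below 0.05 (median difference 0.081). The smallest p was that of Kat2b, an acetyltransferase gene (0.59 ± 0.20, adjusted p = 0.110).

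Of 15 further Kruppel-like and Sp family genes 13 were on the array with a probe set of 1 symbol and 11 were tested, of which 1 rose and 0 fell. Klf16, a repressor of the same Sin3-binding subgroup as Klf9 and Klf13, had 4.64, 4.73 and 4.58 on the high-fat arrays, against 4.26, 3.96 and 4.08 on the normal diet arrays (0.55 ± 0.11, limma adjusted p = 0.0315). That call ended without normal diet 2 (0.48) and with any single high-fat array left out (0.51 to 0.58). The median difference of these 11 genes was -0.083, against 0.37 for the 10 members.

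The spread between arrays was larger under the normal diet for 9 of the 10 members and smaller for Klf6. The members' median SD was 0.16 under the high-fat diet and 0.43 under the normal diet, against 0.12 and 0.17 over all tested genes. The plot of differences with 1 array left out shows which members rested on a single array.

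**Figure D4:**
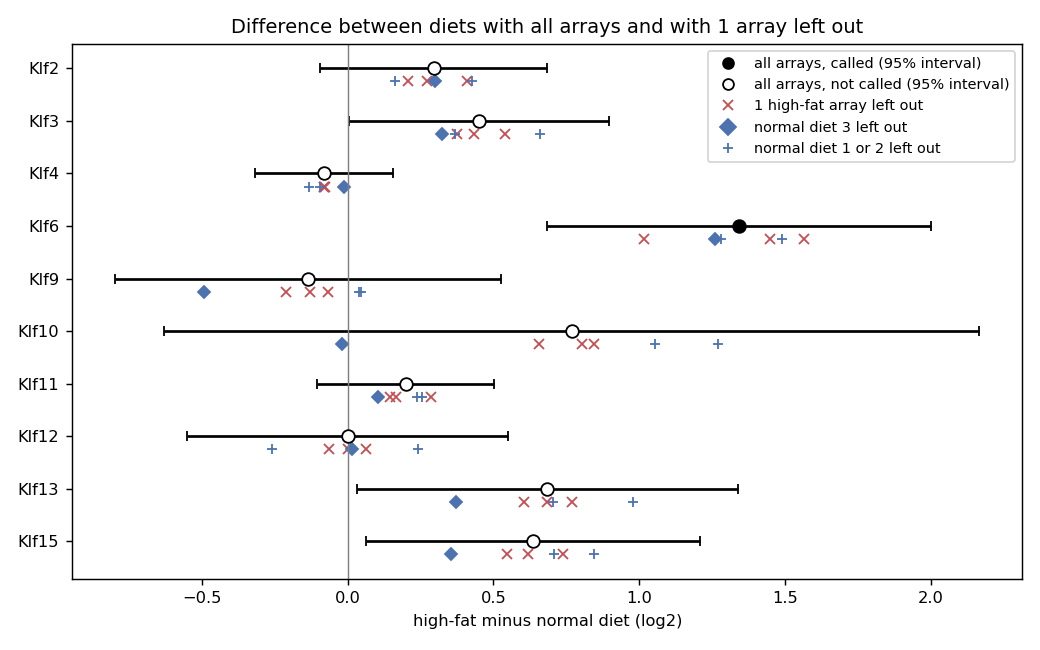
Difference between high-fat and normal diet in log2 (x axis) for each Kruppel-like factor, with all arrays (circle and 95% interval, filled where called) and, below it, with each array left out in turn. Klf6 stays between 1.02 and 1.57, while Klf10 moves to -0.020 and Klf9 to -0.49 without normal diet 3.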

How the data were processed

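The deposited table held log2 expression values of 45101 probe sets on 6 arrays, which the authors made by robust multi-array averaging (RMA) in Expression Console 1.0, per the submitters' processing notes. Background correction and normalization settings are not given in the sources used here. No further scaling was applied. After 64 control probe sets were left out, 34945 had 1 gene symbol in the platform annotation, 932 several and 9160 none. Each gene was represented by its single-symbol probe set with the highest mean. Probe sets above the 40th percentile of an array (floors 3.48 to 3.59) on at least 3 arrays were tested with limma 3.58.1 in R 4.3.3 (lmFit and eBayes, two-sided, Benjamini-Hochberg adjustment over all genes or all probe sets). The procedure was tested on simulated data with the same spread in both groups. Of the changes of 1.5-fold, 2-fold and 4-fold put into these data, 20.9%, 68.7% and 92.4% were called. The number of arrays limits the precision, and no depth applies.

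The Kruppel-like factors and companion lists were chosen with earlier results of these data known. Lists are described by counts and medians, without a test. The text names all 10 members, up to 4 tested genes of each list with the smallest p, and, for the 3 members with the smallest p, the 3 genes nearest in profile. Alternatives covered the level filter, variance model, array weights, scaling, choice of probe set, the label numbers as a replicate block, and leaving out each array. Promoters were read from RefSeq on GRCm38.p6. Summaries used Python 3.11.15 with pandas 2.3.3, and figures matplotlib 3.10.9.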

Additional observations from a re-analysis of the deposited data

How the results depend on the processing

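With 3 arrays of pooled livers per diet, single arrays decided several results. The number of members called was 1 with all arrays, 0 to 2 with 1 array left out, 0 with a replicate block and 0 with the probe set of smallest mean, under which 5 members were tested and Klf6 was not. It was 1 under the other alternatives. Called member probe sets numbered 3, and 0 to 4 with 1 array left out. Called companion genes numbered 24, and 7 to 27 with 1 array left out. Over all genes 1070 were called, against 661 with the probe set of smallest mean and 272, 217 and 169 without high-fat 1, 2 and 3. Leaving out an array of either diet leaves equally few arrays in the fit. When normal diet 1, 2 or 3 was the array dropped, 1065, 949 and 1245 genes were called. The cause of this contrast between the diets was not tested.

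The labels number the arrays of both diets 1 to 3. Deviations from the group means correlated at -0.012, 0.036 and 0.0999 between arrays of the same number, so the numbers were not taken to pair the samples, and not every array correlated best with its own number. With the replicate block 768 genes and 2 member probe sets were called, and the Klf6 difference of 1.34 had an adjusted p of 0.0564 and the Klf16 difference of 0.55 one of 0.0646 (limma), neither of which was called.

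With 1 array left out, Klf9 ranged from -0.49 to 0.045, Klf10 from -0.020 to 1.27 and Klf12 from -0.26 to 0.24. Among Klf9 probe sets 1428288_at ranged from -0.47 to 0.059, 1436763_a_at from -0.60 to 0.0028, 1422264_s_at from -0.36 to 0.23 and 1436952_at from -0.24 to 0.14. Klf12, near 0 with all arrays, was 0.11 with array weights, 0.046 with median centring, 0.15 when its probe sets were averaged and 0.85 with probe sets without a suffix. Probe set 1422264_s_at was -0.16 with array weights, -0.068 with quantile normalization and -0.035 with cyclic loess. The cause of these turns was not tested. No other member changed sign under any alternative run.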
